A study of Mus musculus with 12 samples.

Results

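The genes described here encode axon guidance ligands and receptors: the Eph receptors and their ephrin ligands, the semaphorins with their plexin and neuropilin receptors, a netrin, the Robo receptors and the teneurins. They were taken by symbol, as every gene whose single annotated symbol begins with Epha, Ephb, Efna, Efnb, Sema, Plxn, Nrp plus a digit, Ntn, Slit plus a digit, Robo or Tenm, and each gene was followed through its brightest probe set. This gave 46 of the 8251 genes with a single symbol on the array, measured by 61 probe sets. Of the 46, 8 are ephrins, 9 Eph receptors, 16 semaphorins, 6 plexins or neuropilins, 1 a netrin, 2 Robo receptors and 4 teneurins. No Slit gene was among them.

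RNA was measured on 12 Affymetrix MG-U74v2 set A arrays, 1 array per pooled sample of mouse tissue. VC mice carry VP16-CREB, an active form of the transcription factor CREB that doxycycline (dox) keeps switched off, and removal of dox switches it on. Microdissected CA1, a subfield of the hippocampus, came from VC mice 3 weeks off dox (n = 2 arrays) and from wild-type mice (n = 1). Whole hippocampus came from VC mice 1 week (n = 2), 2 weeks (n = 2) and 5 weeks (n = 1) off dox, called induced here, and from VC mice in which 3 weeks of expression were followed by 2 weeks back on dox (n = 1, reversed). The never-induced hippocampi were 2 wild-type samples and 1 from VC mice kept on dox, so the transgene is present but silent in 1 of these 3. Each hippocampal sample pooled 6 to 10 mice. Neither the labels nor the design text gives the promoter behind the dox-regulated activator, the strain or the age. The reversed sample is VC in its title and wild type in its description, and it was kept apart.

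Ephrins are ligands anchored to the cell surface, and they signal through the Eph receptor tyrosine kinases of neighbouring cells while also signalling back into their own cell. Semaphorins are secreted or membrane-bound ligands of the plexins, and the secreted class uses neuropilins as co-receptors. These systems steer growing axons, and in the mature hippocampus several of them remain at synapses, dendritic spines and mossy fibres. In bulk tissue, fewer cells of a type and less RNA per cell cannot be told apart.

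Levels are log2 intensities, scaled so that the trimmed mean of every array is 1000, with a floor of 6.04. Tests covered probe sets brighter than their own array's median on at least 2 arrays. Of the 46 genes, 31 passed this filter and 15 did not, and 20 lay above the median on all 12 arrays. Among the 31, Efna2 and Robo1 did so on fewer than 6 arrays. Robo1 passed through the 2 VC CA1 arrays, so in every comparison that uses those arrays its place among the tested genes rests on the group where it is high. The 15 under the filter were the ephrins Efna1, Efna4, Efna5 and Efnb1, the receptors Epha2, Epha3, Ephb3 and Robo3, the semaphorins Sema3a, Sema3b, Sema3c, Sema3f, Sema5a and Sema6a, and the teneurin Tenm1. Sema3f was at the floor on all 12 arrays, and the highest level of any of the 15 was 9.06, for Efnb1 in wild-type CA1. Among the secreted class 3 semaphorins under the filter, Sema3b reached 7.46 on 1 of the 2-week arrays, and Sema3a, Sema3c and Sema3f stayed at or below 6.78 in hippocampus.

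**Figure D1:**
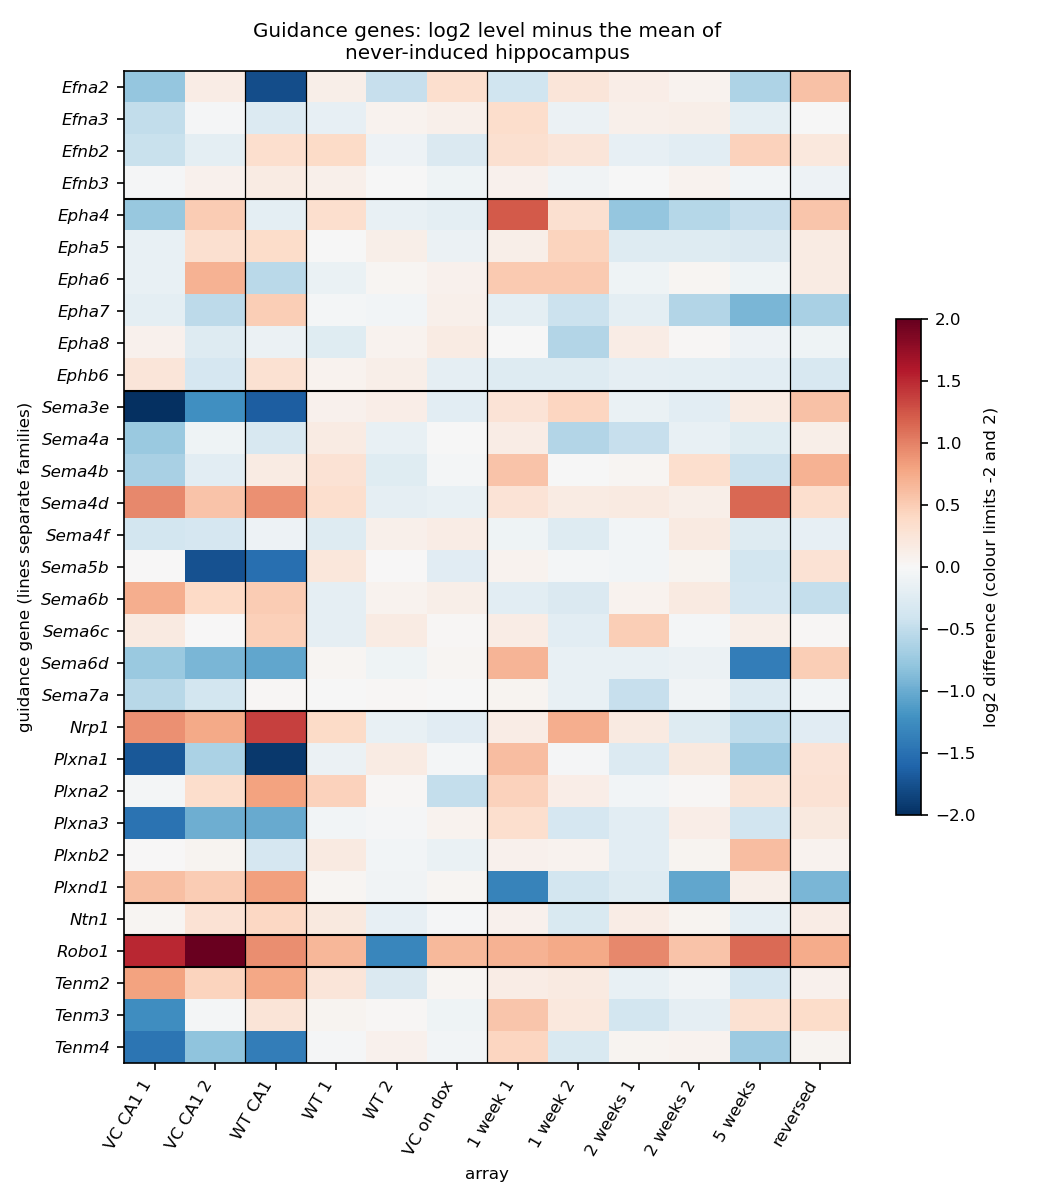
Log2 level of each of the 31 tested guidance genes (rows, lines between families) on each of the 12 arrays (columns) minus its mean over the 3 never-induced hippocampi, with colour limits at -2 and 2. The CA1 columns on the left differ from the hippocampal ones for many genes, Sema3e and Plxna1 among them, and the row of Epha7 is blue on all 5 induced arrays.

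Signal for Creb1, which encodes CREB, checked the labels: one of its probe sets read 8.86 and 9.56 in VC CA1 and 6.04 in wild-type CA1, and 8.31 to 9.63 in induced against 6.04 to 6.33 in never-induced hippocampus. The reversed sample, whose title and description conflict, read 7.10, between the induced and the never-induced ranges. Another Creb1 probe set read 8.14 to 9.15 in induced, 6.36 to 7.66 in never-induced and 7.68 in reversed hippocampus. The remaining Creb1 probe set was under the filter. It overlapped between induced (6.08 to 7.53) and never-induced hippocampus (6.04 to 7.19) and read 6.04 in the reversed sample. The 4 arrays deposited at a trimmed mean near 500 were the 3 CA1 arrays and wild-type hippocampus array 1, and the other 8 were near 3002. Markers of microglia, 12 genes tested, had a summed scaled intensity of 17333 to 20959 in never-induced hippocampus, 17530 to 17924 at 1 week, 31977 to 34800 at 2 weeks and 61445 at 5 weeks. In CA1 that sum was 65828 to 72001 in VC and 26764 in wild type, where Lyz2 was at the floor, and in hippocampus none of the 12 was at the floor throughout a group. Dentate granule cell markers, 4 genes tested, summed to 5754 to 6282 in never-induced hippocampus, 5248 to 6047 at 1 week, 4884 to 5274 at 2 weeks and 3342 at 5 weeks. They summed to 2696 and 4024 in VC CA1 and 4167 in wild-type CA1, with none at the floor throughout a group.

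The first comparison set all induced hippocampi against the never-induced ones. None of the 31 passed (limma, adjusted p under 0.05), and over all 7069 probe sets tested 0.0283% did. At an unadjusted p under 0.05 there was 1 guidance gene, Epha7, where 3.15% of all probe sets had such a p. Of the 31, 13 read higher and 18 lower, where 3227 of all probe sets tested read higher and 3840 lower. The median log2 difference was -0.04, beside -0.02 over all probe sets tested. By family, 3 of 4 ephrins, 1 of 6 Eph receptors, 4 of 10 semaphorins and 3 of 6 plexins and neuropilins read higher. The median SD within the 5 induced arrays was 0.30 for guidance genes and 0.23 for all probe sets, and within the 3 never-induced arrays 0.16 and 0.15.

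Epha7, a receptor tyrosine kinase for the A-class ephrins, stood lower in both regions when the transgene was on. Its levels were 11.23 and 10.98 after 1 week off dox, 11.22 and 10.83 after 2 weeks and 10.50 after 5 weeks, against 11.38 and 11.36 in wild type and 11.51 in VC on dox. All 5 induced arrays thus lay below all 3 never-induced arrays, and no other guidance gene had this pattern. Over all probe sets, 1.66% lay wholly below in this way. The log2 difference was -0.46 ± 0.18 (SE, 1.38-fold lower), which failed the correction (adjusted p = 0.999, limma). In CA1, Epha7 read 11.22 and 10.89 in VC and 11.91 in wild type, a log2 difference of -0.86 ± 0.30 (SE) that failed as well (adjusted p = 0.352). It was the only 1 of the 31 below its counterparts in both regions, a pattern of 1.06% of all probe sets. With region as a covariate, 7 arrays with the transgene on against 4 without it gave -0.57 ± 0.16 (SE, adjusted p = 0.393).

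After reversal Epha7 read 10.77, still below the 3 never-induced arrays and inside the range of the induced ones. Its difference from never-induced hippocampus was -0.65 ± 0.28 (SE) with 1 reversed array, at an unadjusted p of 0.0438 and an adjusted p of 1 in limma. Another Epha7 probe set was dim and could not show the same: it read 6.04 to 7.50 on the hippocampal arrays and 6.04 to 6.15 in CA1, and it lay under the filter. The mean of both probe sets gave -0.18 for induced against never-induced hippocampus.

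Robo1, a receptor for Slit ligands, had the highest log2 difference of the guidance genes in hippocampus, and 1 array decided its size. Its levels were 8.04 and 8.10 after 1 week off dox, 8.29 and 7.92 after 2 weeks and 8.47 after 5 weeks, against 8.001 and the floor of 6.04 in wild type and 7.98 on dox. The groups overlapped, since 7.92 lay below 2 never-induced arrays. The difference was 0.82 ± 0.39 (SE, at least 1.77-fold, adjusted p = 0.999), and without wild-type array 2 it was 0.17. In CA1, Robo1 read 8.85 and 9.32 in VC and 8.27 in wild type, a difference of 0.82 ± 0.66 (SE, adjusted p = 0.733). Over both regions it had an unadjusted p of 0.0265 in limma (0.82 ± 0.32 SE, adjusted p = 0.617), with 0.38 without wild-type array 2. Robo1 passed the filter through the 2 VC CA1 arrays, which both of these tests use, so no support is drawn from them.

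The other high log2 differences in hippocampus were small, each at an adjusted p of 0.999 in limma. Sema4d, a membrane-bound semaphorin, had 0.38, the receptors Epha6 and Plxna2 0.18 and 0.16, the ligand Efnb2 0.13 and the receptor Plxnb2 0.12. Lowest after Plxnd1 (-0.58) and Epha7 were Sema4a (-0.26), Sema6d (-0.22), Ephb6 (-0.22) and Sema7a (-0.18). Other tested probe sets had the opposite sign for Ephb6 (0.11) and Sema7a (0.12), and the same sign for Plxnb2 (0.14). Plxnd1, the receptor of Sema3e, read 7.40 and 8.36 after 1 week off dox, 8.47 and 7.70 after 2 weeks and 8.85 after 5 weeks, against 8.77, 8.66 and 8.78 in never-induced hippocampus. Its 4 arrays of 1 and 2 weeks lay below the never-induced ones and the 5-week array above them. The sign for Sema6d turns without the 5-week array (0.07).

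**Figure D2:**
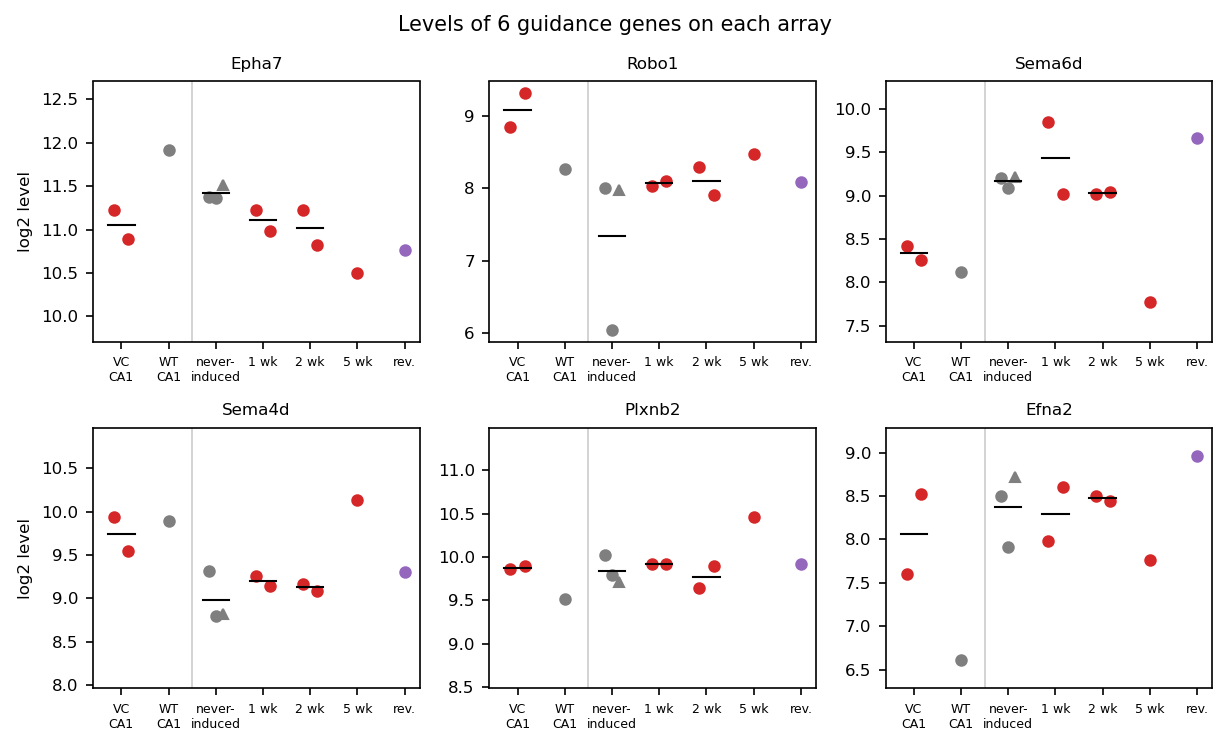
Log2 level of 6 guidance genes by group: CA1 on the left of the grey line, then never-induced hippocampus (triangle, VC on dox), 1, 2 and 5 weeks off dox, and reversed. Points are arrays, red with the transgene on, and black bars are means of groups with more than 1 array. Epha7 lies lower with the transgene on in both regions, Robo1 has 1 wild-type array at the floor, and the 5-week array is the lowest of the 12 for Sema6d and the highest for Sema4d.

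Each time off dox was then compared with never-induced hippocampus. At 1 week none of the 31 genes passed (limma, 0.0283% of all probe sets did), and 1 had an unadjusted p under 0.05 where 5.01% of all probe sets had one. That gene was Plxnd1, at -0.85 ± 0.31 (SE, adjusted p = 0.969). The highest differences were those of Epha4 (0.77), Robo1 (0.73), Epha6 (0.52), Nrp1 (0.44), Tenm3 (0.38) and Sema3e (0.35), and the lowest after Plxnd1 those of Epha7 (-0.31), Epha8 (-0.29), Sema6b (-0.25), Ephb6 (-0.25) and Sema4a (-0.21). Robo1 had 0.08 without wild-type array 2. Another tested probe set had the opposite sign for Ephb6 (0.10) and the same sign for Nrp1 (0.30). Choroid plexus markers, 5 genes tested, summed to 14842 to 16131 at 1 week and 5230 to 8018 in never-induced hippocampus, and their part was not tested. Epha4, a receptor for both ephrin classes that is found on dendritic spines, read 10.24 and 9.34 at 1 week, and the lower of these was within the never-induced range of 8.82 to 9.36.

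At 2 weeks none passed (limma, 0.156% of all probe sets did), and none had an unadjusted p under 0.05, where 4.46% of all probe sets had one. Robo1 (0.76), Sema6c (0.23), Sema4b (0.19), Sema4d (0.15), Sema6b (0.12) and Efna3 (0.11) had the highest differences, and Robo1 had 0.11 without wild-type array 2. The lowest were those of Epha4 (-0.67), Plxnd1 (-0.65), Epha7 (-0.39), Sema4a (-0.31), Tenm3 (-0.28) and Sema7a (-0.27). Other tested probe sets had the opposite sign for Sema4b (-0.50) and Sema7a (0.20). Epha4 read 8.25 and 8.45 at 2 weeks, below all 3 never-induced arrays, so its differences at 1 and 2 weeks had opposite signs.

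At 5 weeks, in 1 pooled sample, the spread between guidance genes was widest, but again none of the 31 passed (limma, 0.990% of all probe sets did). An unadjusted p under 0.05 was found for 4, or 12.9%, where 7.30% of all probe sets had one. Of the 31, 9 read higher and 22 lower, where 3267 of all 7069 probe sets tested read higher and 3798 lower. The median was -0.24, beside -0.03 over all probe sets tested. These differences share 1 array at 5 weeks, so the directions of the genes are not independent. All 6 Eph receptors tested read lower (median -0.25), as did 7 of 10 semaphorins (-0.26) and 3 of 4 ephrins (-0.12). Beside these values, microglial markers were at their highest hippocampal sum and dentate granule markers at their lowest in that sample, as given above. Astrocyte markers, 10 genes tested, summed to 129163 in it and 91296 to 104093 in never-induced hippocampus, choroid plexus markers to 13052 and 5230 to 8018, and interneuron markers, 10 genes tested, to 72452 and 58792 to 63452. The part of these markers in the guidance gene differences was not tested.

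Sema6d, a transmembrane semaphorin of class 6 that binds A-type plexins, came closest to the threshold. It read 7.78 at 5 weeks, against 9.20 and 9.09 in wild type and 9.21 on dox, and lay lower there than on any of the other 11 arrays. The difference was -1.39 ± 0.29 (SE, 2.62-fold lower, adjusted p = 0.0913). The 1-week arrays do not enter this contrast but enter the shared spread. Leaving out either of them keeps the difference at -1.39. The 1-week array left over is then matched exactly, so these fits are 1 result and not separate support. In the reversed sample Sema6d read 9.66.

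Sema4d, a ligand of B-type plexins that is also known from immune cells and oligodendrocytes, and Plxnb2, a B-type plexin, read higher at 5 weeks. Sema4d was 10.13 at 5 weeks, against 9.31 and 8.79 in wild type and 8.82 on dox, a difference of 1.15 ± 0.26 (SE, 2.22-fold, adjusted p = 0.127). The 1- and 2-week arrays, at 9.09 to 9.25, lay within the never-induced range. Oligodendrocyte markers, 8 genes tested, summed to 44531 at 5 weeks, inside the range of 40272 to 49651 in never-induced hippocampus. Microglial markers summed to 61445 at 5 weeks and 17333 to 20959 in never-induced hippocampus. The part of either marker list in the level of Sema4d was not tested. Plxnb2 was 10.46 at 5 weeks, against 10.03 and 9.79 in wild type and 9.72 on dox (0.62 ± 0.20 SE, adjusted p = 0.416). Another Plxnb2 probe set read 9.16 at 5 weeks, within the never-induced range of 9.07 to 9.34, and gave -0.04 ± 0.24 (SE).

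Epha7 had the lowest hippocampal level of its own at 5 weeks (-0.92 ± 0.23 SE, 1.89-fold lower, adjusted p = 0.211). The remaining high differences at 5 weeks belonged to Robo1 (1.13, and 0.48 without wild-type array 2), Efnb2 (0.45), Tenm3 (0.30) and Plxna2 (0.25). Among the low ones were Tenm4 (-0.73), the semaphorin receptor Plxna1 (-0.72), Efna2 (-0.62) and Nrp1 (-0.50). For Nrp1, the co-receptor of class 3 semaphorins, another probe set gave 0.58 at 5 weeks, the opposite sign.

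Set directly against 1 week, 5 weeks gave no guidance gene past the threshold (limma, 0.637% of all probe sets passed). An unadjusted p under 0.05 was found for 9 of 31, or 29.0%, where 6.85% of all probe sets had one. These were Sema6d (-1.66 ± 0.31 SE, adjusted p = 0.0693), Epha4 (-1.24), Plxna1 (-1.02), Nrp1 (-0.94), Tenm4 (-0.79) and Epha7 (-0.61) below, and Plxnd1 (0.97), Sema4d (0.93) and Plxnb2 (0.54) above. The other named genes were Sema4b (-0.72), Robo1 (0.40), Epha8 (0.19) and Efnb2 (0.17). Other tested probe sets had the opposite sign for Nrp1 (0.27), Plxnb2 (-0.27) and Sema4b (0.11), and the same sign for Tenm4 (-0.77 and -0.83). The count moved with single arrays: without 1-week array 1, which read 10.24 for Epha4, 9.85 for Sema6d, 10.55 for Tenm4 and 9.48 for Plxna1, it was 4. It was 3 without wild-type array 2, and 4 without wild-type array 1 or the array on dox. Those never-induced arrays do not enter the contrast but enter the shared spread. The shares of all probe sets in these fits are not given here, so the changes are not read as particular to guidance genes. With any 1 array left out the count ran from 3 to 10. Without 1-week array 2 it was 8, with Sema6d past the threshold (-2.07, adjusted p = 0.0344).

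The reversed sample, back on dox for 2 weeks, was set against both other states. Its microglial marker sum was 26447 and its dentate granule sum 4493, against 17333 to 20959 and 5754 to 6282 in never-induced hippocampus, and the part of these in its values was not tested. Against never-induced hippocampus none of the 31 passed, nor did any of the 7069 probe sets (0% in limma). At an unadjusted p under 0.05 there was 1 guidance gene, Epha7, where 2.55% of all probe sets had such a p. The highest differences were those of Robo1 (0.75, and 0.09 without wild-type array 2), Sema4b (0.69), Efna2 (0.59), Sema3e (0.58), Epha4 (0.56) and Sema6d (0.49). Plxnd1 (-0.91), Sema6b (-0.48), Ephb6 (-0.33), Nrp1 (-0.22) and Sema4f (-0.17) joined Epha7 at the low end. Other tested probe sets had the opposite sign for Sema4b (-0.24), Ephb6 (0.30) and Nrp1 (0.41). Plxnd1 read 7.82 after reversal, against 7.40 to 8.85 in induced and 8.66 to 8.78 in never-induced hippocampus, so it lay within the induced range.

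Against induced hippocampus, the reversed sample again showed no guidance gene and no probe set past the threshold (0% in limma), and no guidance gene had an unadjusted p under 0.05, where 2.56% of all probe sets did. Sema6d (0.71), Efna2 (0.70), Epha4 (0.61), Sema4b (0.59), Sema3e (0.47) and Sema4a (0.38) were highest. Lowest were Sema6b (-0.36), Plxnd1 (-0.33), Nrp1 (-0.28), Epha7 (-0.18), Efnb3 (-0.11) and Ephb6 (-0.11). Other tested probe sets had the opposite sign for Sema4b (-0.04), Nrp1 (0.29), Efnb3 (0.27) and Ephb6 (0.20).

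In CA1 the transgene was compared after 3 weeks, with 1 wild-type array. None of the 31 passed (limma, 0.467% of all probe sets did), and 2, Efna2 and Epha7, had an unadjusted p under 0.05 where 10.0% of all probe sets had one. Both VC arrays lay above wild type for 6 genes and below it for 14, while over all probe sets 29.4% lay wholly above and 31.6% wholly below. Robo1, among the 6, passed the filter through these VC arrays, and no support is drawn from it. For Ephb6, Nrp1 and Sema7a, counted as below, another tested probe set lay wholly above (0.78, 0.75 and 1.18). For Sema4b another lay below as well (-0.90), and for Efnb3 another had VC arrays on both sides of wild type. Above in both CA1 and hippocampus was none of the 31, where 1.10% of all probe sets were, and wholly above in hippocampus alone was none either, where 1.71% were. The microglial marker sum was higher in both VC CA1 arrays than in wild type, as given above, and its part was not tested.

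Efna2, a ligand of the A-class Eph receptors, read 7.60 and 8.52 in VC CA1 and 6.61 in wild-type CA1. Its difference of 1.45 ± 0.46 (SE, 2.73-fold) was the highest of the 31 in CA1 and failed the correction (adjusted p = 0.288). The hippocampal difference of Efna2 was -0.11, and the difference between these effects was 1.57 ± 0.54 (SE, unadjusted p = 0.0152, adjusted p = 0.660). The wild-type CA1 level, which is the lowest of the 12 arrays for this gene, enters both values. Next were Epha6 (0.82), Robo1 (0.82), Plxna1 (0.77), Sema5b (0.65) and Plxnb2 (0.36). Another Plxnb2 probe set gave -0.40 in CA1.

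At the low end in CA1 stood Tenm3 (-0.91), Epha7, Sema3e (-0.73), Plxna2 (-0.66), Efnb2 (-0.65) and Sema4b (-0.59). Tenm3, a teneurin, one of the adhesion proteins that match synaptic partners, read 7.37 and 8.56 in VC CA1 and 8.87 in wild type. Sema3e, a secreted semaphorin that acts through Plxnd1, read 6.92 and 9.25 in VC CA1 and 8.82 in wild type, so the VC arrays lay on both sides. Without VC CA1 array 2, Sema3e passed the threshold (-1.90, adjusted p = 0.0488), and without VC CA1 array 1 its sign turned (0.44). Sema5b had the reverse split, with 9.32 and 7.57 in VC CA1 and 7.80 in wild type, and gave -0.23 without VC CA1 array 1.

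The 2 VC CA1 arrays also differed for the receptors Epha4 (8.26 and 9.53), Plxna1 (7.16 and 8.22) and Epha6 (9.32 and 10.17). For these 3, as for Sema3e, Tenm3 and Efna2, array 2 read higher. Marker sums differed in both directions: on arrays 1 and 2 they were 2696 and 4024 for dentate granule cells, 10479 and 6618 for endothelial cells and pericytes, 96345 and 65193 for astrocytes, and 68774 and 56117 for interneurons. The part of these markers in the differences was not tested.

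Whether the CA1 effect differs from the hippocampal one was tested as an interaction, and none of the 31 passed (limma, 0.0566% of all probe sets did). Efna2 alone had an unadjusted p under 0.05, where 5.81% of all probe sets had one. The next highest were Plxna1 (0.80), Sema5b (0.72), Epha6 (0.64), Sema6d (0.44) and Tenm4 (0.35). The lowest were Tenm3 (-1.01), Sema3e (-0.84), Plxna2 (-0.82), Efnb2 (-0.78), Sema4b (-0.69) and Nrp1 (-0.58). Other tested probe sets had the opposite sign for Tenm4 (-1.26 and -0.44) and Nrp1 (0.63), and the same sign for Sema4b (-0.70). Over both regions together no guidance gene passed (limma, 0.0283% of all probe sets did). An unadjusted p under 0.05 was found for 2, Epha7 and Robo1, where 6.88% of all probe sets had one. Robo1 passed the filter through the 2 VC CA1 arrays, so no support is drawn from its test. The others at the high end were Epha6 (0.35), Efna2 (0.30), Sema4d (0.24), Plxnb2 (0.19) and Plxna1 (0.17). At the low end, Epha7 was followed by Plxnd1 (-0.49), Sema7a (-0.26), Ephb6 (-0.25), Sema4a (-0.22) and Tenm3 (-0.16). Other tested probe sets had the opposite sign for Sema7a (0.40), Ephb6 (0.28) and Plxnb2 (-0.0022).

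**Figure D3:**
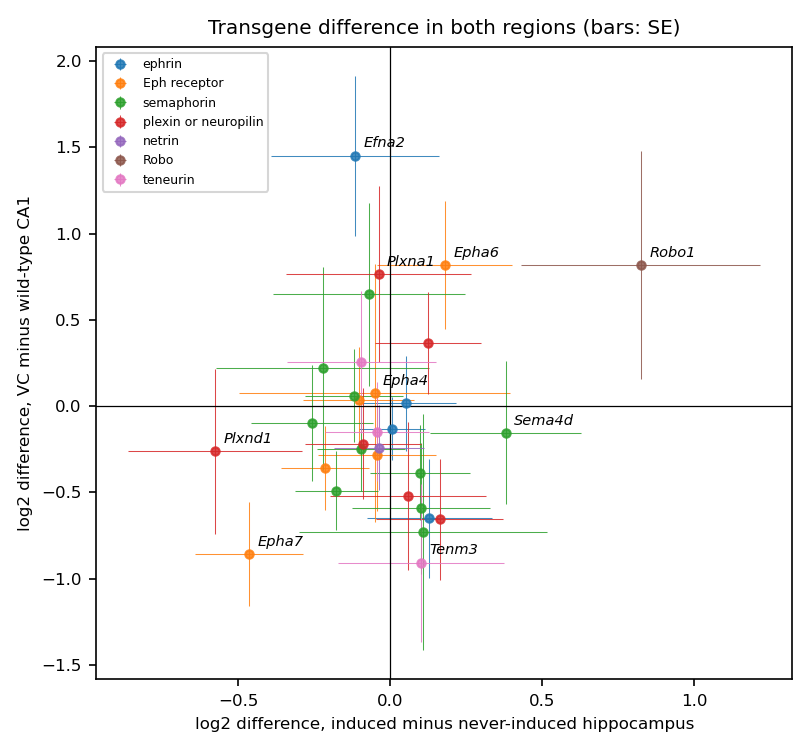
Log2 difference with its SE for each of the 31 tested guidance genes: induced minus never-induced hippocampus on the horizontal axis (5 against 3 arrays) and VC minus wild-type CA1 on the vertical axis (2 against 1), coloured by family. Epha7 at -0.46 and -0.86 is in the lower left, Robo1 at 0.82 on both axes in the upper right, and Efna2 is at -0.11 and 1.45.

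CA1 was then compared with whole hippocampus, as the mean of the CA1 groups minus the mean of the induced and never-induced groups. Here 10 of the 31 guidance genes passed (limma, 4 higher and 6 lower in CA1). This is 32.3% of them, close to the 35.9% of all probe sets that passed, 11.4% higher and 24.5% lower. The median log2 difference was -0.13 for the guidance genes and -0.13 for all probe sets. The sums of pyramidal cell markers overlapped between the regions. CA1 markers, 5 genes tested, summed to 9207 to 11660 in CA1 and 9201 to 14149 in hippocampus. CA3 and CA2 markers, 5 genes tested, summed to 31320 to 33679 and 29271 to 37007. Single markers did pass. Of the CA1 list, Pou3f1 (0.68) was higher and Dcn (-0.75) lower in CA1. Of the CA3 and CA2 list, Nptx1 (-1.05) and Prkcd (-0.60) were lower. Of 5 choroid plexus markers 3 passed, all lower, and of 10 interneuron markers 2 passed higher and 4 lower. The part of these markers was not tested. Region and deposited scale largely coincide, since wild-type hippocampus array 1 is the only hippocampal array on the scale of the CA1 arrays. With the scale as a block, 0 of the 31 passed, and the share of all probe sets that passed in that fit is not given here. That fit separates region from scale through wild-type hippocampus array 1 alone, so the 0 is not read as particular to guidance genes. Each of the 10 kept its sign, with log2 differences such as -2.18 for Sema3e, -1.38 for Plxna1, -1.01 for Plxna3, 0.60 for Nrp1 and 0.42 for Tenm2. Wild-type CA1 and wild-type hippocampus array 1 share a scale, and between these single arrays the 10 genes had the same directions. Both arrays entered the test that picked the 10, so these directions are no separate support. Their levels were 9.19 and 10.15 for Plxna3, 6.93 and 8.74 for Plxna1, 7.80 and 9.53 for Sema5b, 6.61 and 8.50 for Efna2, and 8.73 and 10.09 for Tenm4. They were 10.85 and 10.17 for Sema6b, 11.08 and 10.55 for Tenm2, and 12.26 and 11.27 for the brightest Nrp1 probe set. Plxna1 was above the array median on hippocampal arrays only and Robo1 on CA1 arrays only, so each entered this comparison through the region where it is high, and no support is drawn from their tests. Plxna1 is counted among the 10 that passed and among the 6 lower.

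Sema3e had the lowest difference, -2.07 ± 0.40 (SE, 4.21-fold lower in CA1, adjusted p = 0.00368). It read 6.92 to 9.25 on the 3 CA1 arrays and 10.26 to 10.90 on the 8 hippocampal arrays without the reversed one, so the regions did not overlap. Wild-type CA1 at 8.82 stood below wild-type hippocampus array 1 at 10.55. Its receptor Plxnd1 had the opposite direction, with 9.25 to 9.55 in CA1 and 7.40 to 8.85 in hippocampus (0.97 ± 0.28 SE, 1.96-fold higher in CA1, adjusted p = 0.0221). Wild-type CA1 read 9.55 for Plxnd1 and wild-type hippocampus array 1 8.77. Endothelial and pericyte markers, 9 genes tested, summed to 6618 to 10479 in CA1 and 4936 to 6404 in hippocampus, and 4 of the 9 passed in CA1 against hippocampus, all higher. Their part in the level of Plxnd1, which is also known from blood vessels, was not tested.

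Among the A-type plexins, Plxna3 was lower in CA1. It read 8.72 to 9.23 in CA1 and 9.82 to 10.54 in hippocampus, without overlap (-1.07 ± 0.19 SE, adjusted p = 0.0023). Plxna1 read 6.93 to 8.22 in CA1 and 8.14 to 9.48 in hippocampus (-1.53 ± 0.30 SE), with no support drawn from its test, as said above. Plxna2 did not pass, with 8.83 to 9.68 in CA1 and 8.39 to 9.32 in hippocampus. Of their semaphorin ligands, Sema6b was higher in CA1 (10.75 to 11.08 against 10.02 to 10.53, 0.59 ± 0.16 SE, adjusted p = 0.0155), and Sema6d had -0.82 and did not pass (adjusted p = 0.083). Sema5b was lower (-1.15 ± 0.31 SE, adjusted p = 0.0162), with 9.32 on VC CA1 array 1 inside the hippocampal range of 8.94 to 9.53. Efna2 was lower as well (-0.98 ± 0.27 SE, adjusted p = 0.0181). Sema4d (0.65, adjusted p = 0.0568) and Robo1 (0.92, at least 1.90-fold, adjusted p = 0.0826) did not pass. Single arrays changed some of these calls. Without VC CA1 array 1, Efna2 (-0.75) and Plxnd1 (0.95) no longer passed. Sema6d passed without the 5-week array (-0.97), and Sema4d without VC CA1 array 2 (0.75), the 5-week array (0.75) or wild-type hippocampus array 1 (0.74).

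The teneurins split. Tenm2 was higher in CA1, at 10.75 to 11.10 against 9.97 to 10.55 in hippocampus (0.72 ± 0.17 SE, adjusted p = 0.00853), and Tenm4 lower, at 8.66 to 9.31 against 9.39 to 10.55 (-1.21 ± 0.24 SE, adjusted p = 0.0042). For Tenm4 the brightest probe set stood alone: the 2 others gave 0.40 and 0.50 and did not pass. None of the 6 Eph receptors passed with its brightest probe set, but another Ephb6 probe set was lower in CA1 (-0.70 ± 0.14 SE, adjusted p = 0.004).

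Nrp1 gave opposite calls with its 2 probe sets. The brightest read 11.65 to 12.26 in CA1 and 10.39 to 11.62 in hippocampus (1.07 ± 0.25 SE, adjusted p = 0.00914). The other read 8.81 to 9.89 in CA1 and 9.56 to 10.53 in hippocampus (-0.83 ± 0.25 SE, adjusted p = 0.0267). The direction for Nrp1 in CA1 is thus not settled by these arrays. Of the other second probe sets, those of Efnb3 (-0.83, adjusted p = 0.0266) and Sema7a (-0.88, adjusted p = 0.0136) were lower and one of Sema4b (0.83, adjusted p = 0.0294) higher in CA1, where the brightest probe sets gave differences of 0.09, -0.13 and -0.19 that did not pass.

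**Figure D4:**
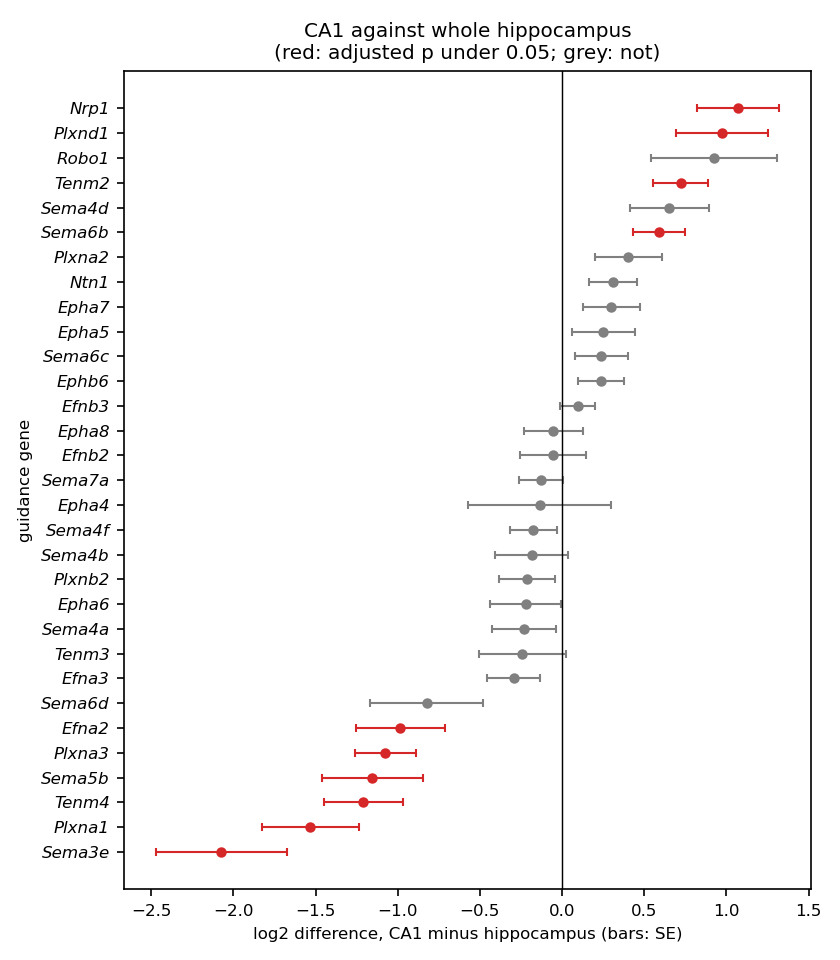
Log2 difference between CA1 and whole hippocampus (points) with its SE (bars) for the 31 tested guidance genes, brightest probe set each, ordered by difference; red marks the 10 with an adjusted p under 0.05. Sema3e, at -2.07, is lowest and Nrp1, at 1.07, highest.

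**Figure D5:**
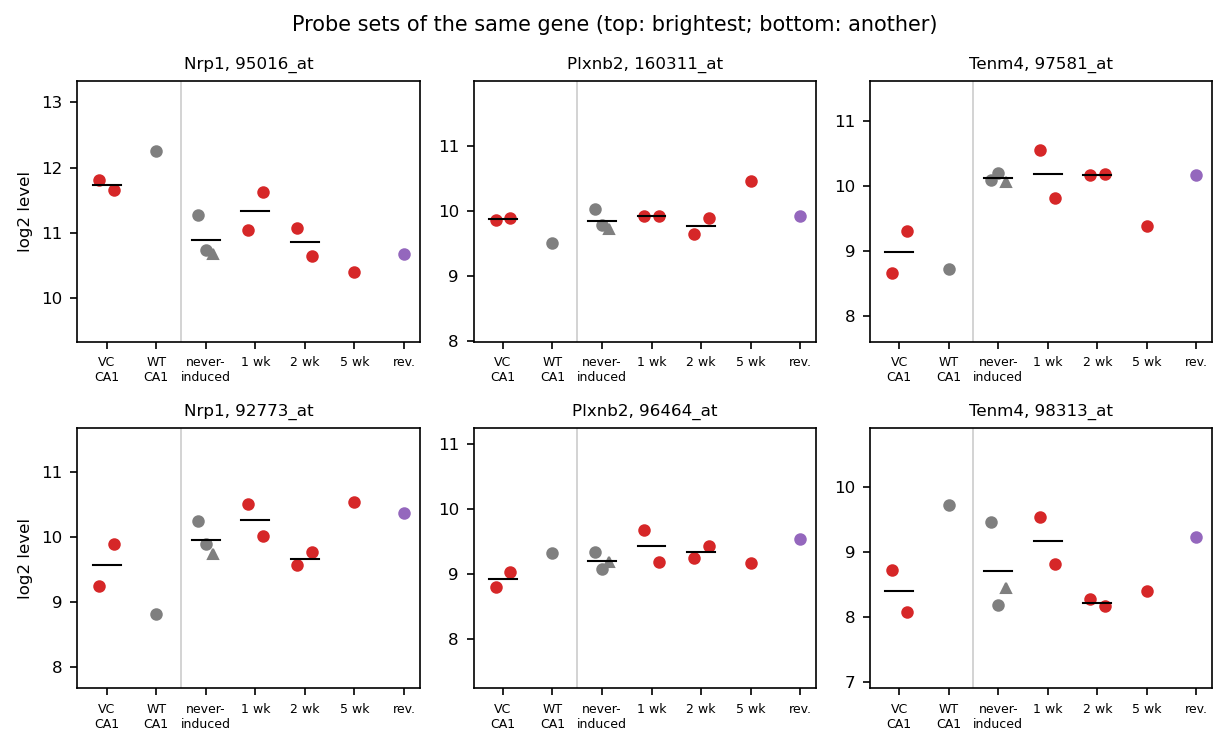
Log2 levels by group for the brightest probe set (top) and another tested one (bottom) of Nrp1, Plxnb2 and Tenm4; points are arrays, red with the transgene on, triangles VC on dox, and bars means. For Nrp1 the CA1 arrays lie above all hippocampal arrays at the top, and below most of them, with overlap, at the bottom.

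Within hippocampus, guidance genes varied by different amounts over the 9 arrays. The range between the lowest and the highest array had a median of 0.75 for the 31, beside 0.67 for all probe sets tested. It was smallest for the brightest probe set of the ligand Efnb3, at 12.09 to 12.30, while its other tested probe set ran from 10.58 to 11.52, and small also for Sema4f (0.44), Ephb6 (0.45) and the netrin Ntn1 (0.49). It was widest for Robo1 (2.44, with 1 array at the floor), Sema6d (2.07) and Epha4 (1.99). Efna3, a ligand of Epha4, read 11.82 to 12.36 over the same arrays.

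Other genes of these pathways were followed in 4 lists, and none of their tested genes passed in any of the 10 comparisons that involve the transgene (limma). Of netrin and adhesion receptors, 20 were listed, 9 were on the array and 6 were tested, and 4 of these read higher and 2 lower both in induced and in 5-week against never-induced hippocampus. All 3 collapsin response mediators tested, of 5 listed, read lower in both (medians of -0.15 and -0.35). Kinases and cytoskeletal regulators, 12 tested of 23 listed, read higher for 7 and lower for 5 in induced hippocampus, and higher for 4 and lower for 8 at 5 weeks (median -0.08). Of 3 ephrin scaffolds tested, of 6 listed, 1 read higher in induced hippocampus and 2 at 5 weeks. In CA1 against hippocampus, where 35.9% of all probe sets passed, 2 of the 6 receptors did, both higher: Chl1 (1.36), an adhesion molecule that can act with Nrp1, and Adgrl1 (0.49), a teneurin receptor. Of the 12 kinases and regulators, Fyn (0.59), a kinase downstream of plexins and Eph receptors, and Abl1 (0.51) were higher, and Cdk5r1 (-1.57), the activator of Cdk5, Rock1 (-1.35), Limk1 (-0.60) and Yes1 (-0.43) lower. Dpysl2 (-0.98), the mediator of the collapse that Sema3a triggers, and the scaffold Pick1 (-0.70) were lower as well.

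CREB binds the cyclic AMP response element (CRE), so the promoters were searched for its full form, TGACGTCA, a palindrome, and its core, TGACG, on both strands. RefSeq windows of 300 bases (GRCm38.p6), 250 before to 50 after the start site, were at hand for 40 of the 46 genes. The full form was in 3.70% of the 54 windows of these genes, beside 1.79% of all 32851 windows, and the core, which the full form contains, in 14.8%, beside 20.8%. By gene, 2 of the 40 held the full form, beside 2.03% of all 27025 genes, and 8 of the 40 the core, beside 23.0%. The 2 genes with the full form were Tenm3 and Epha2. Their 250 bases before the start site are shown because they hold it, in capitals, and those of Epha7 because it was the gene lower in both regions, with neither form there. A match is a description, not a binding site. Each is written in the direction of transcription.
Tenm3, chr8:48674691-48674940, minus strand: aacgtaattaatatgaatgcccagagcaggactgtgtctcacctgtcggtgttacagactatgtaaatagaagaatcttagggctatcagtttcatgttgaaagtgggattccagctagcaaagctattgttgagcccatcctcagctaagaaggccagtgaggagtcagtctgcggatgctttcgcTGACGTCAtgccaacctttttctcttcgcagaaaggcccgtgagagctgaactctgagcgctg
Epha2, chr4:141300971-141301220, plus strand: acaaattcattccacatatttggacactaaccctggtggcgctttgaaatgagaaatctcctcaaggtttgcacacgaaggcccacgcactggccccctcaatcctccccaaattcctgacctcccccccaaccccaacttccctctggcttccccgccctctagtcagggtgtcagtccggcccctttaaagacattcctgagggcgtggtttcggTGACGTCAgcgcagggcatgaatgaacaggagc
Epha7, chr4:28812881-28813130, plus strand: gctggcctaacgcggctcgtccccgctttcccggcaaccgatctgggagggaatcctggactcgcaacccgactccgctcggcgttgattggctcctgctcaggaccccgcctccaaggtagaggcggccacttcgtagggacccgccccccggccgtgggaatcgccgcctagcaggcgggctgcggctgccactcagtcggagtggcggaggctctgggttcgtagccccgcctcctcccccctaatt
The CRE begins 63 bases before the start site of Tenm3 and 33 bases before that of Epha2. Tenm3 had a log2 difference of 0.10 in induced hippocampus and -0.91 in VC CA1, neither past the test. Epha2 was under the filter, at 6.17 on VC CA1 array 2, 6.20 in wild-type CA1 and at most 6.07 on the other arrays.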

How the data were processed

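The deposited values are microarray intensities on a linear scale, 1 array per pooled sample, made with the Affymetrix software GCOS, per the submitters' processing notes. Its version and settings are not given in these sources. Arrays were brought to a common 2% trimmed mean of 1000, floored at the 20th percentile (65.7) and log2 transformed. Of 12488 probe sets, 66 controls were left out, and 7069 lay above their array's median on at least 2 arrays. Symbols came from the platform annotation. Tests used limma 3.58.1 in R 4.3.3 (two-sided, Benjamini-Hochberg over all 7069, threshold 0.05), with fits of 5 levels (induced pooled), 7 levels (times separate) or transgene plus region without the reversed array. Groups of 1 array were assumed to vary like the others. The p-values measure the spread between arrays around the fitted levels, and the number of pooled samples limits the precision. In the 5-level and the transgene plus region fits that spread includes differences between times off dox. In every fit it includes those between wild type and VC on dox. Code was tested on simulated data. The genes and lists were chosen with earlier results of these data known. Named are genes past the threshold or at an unadjusted p under 0.05, the 6 highest and 6 lowest per comparison, and the brightest of each family. A fold is a bound ("at least") if the lower group had an array at the floor. Same-numbered arrays did not deviate together (correlations of 0.04, 0.02 and -0.10), so numbers were not used as pairs. A further list of pathway genes is not reported here.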

Additional observations from a re-analysis of the deposited data

Results flagged for a closer look

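In 2 of the 31 guidance genes tested, the 5-week array stood apart from the other 4 induced hippocampal arrays by Dixon's test, which picks out about 1 in 20 groups by chance. Sema4d read 10.13 there, with 9.25 the next highest. Sema5b read 8.94 there, with 9.26 the next lowest. The microglial and dentate markers of that array are given above, and their part was not tested.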

How the results depend on the processing

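Counts of guidance genes past the threshold stayed at 0 in all comparisons of the transgene under quantile normalization, a floor at the 10th percentile, no filter, a filter of 6 arrays, the mean of all probe sets of a gene, trend and robust variance and the deposited scale as a block. With an array left out they ran from 0 to 1 for 5 weeks against never-induced hippocampus, for 5 weeks against 1 week and for VC against wild-type CA1. For CA1 against hippocampus the 10 became 0 with the deposited scale as a block and ran from 8 to 12 with an array left out. The shares of all probe sets in these fits are not given here, so the changes are not read as particular to guidance genes. With the number of the array as a replicate block, over the wild-type, 1-week and 2-week hippocampi, the count stayed at 0 for induced, 1 week and 2 weeks against never-induced hippocampus. Against never-induced hippocampus that fit turned the signs of Efnb2 (-0.093), Plxna2 (-0.096), Plxnb2 (-0.064) and Sema6d (0.091). The mean of all probe sets turned signs, by its construction where probe sets disagree, for Sema4a in induced (0.21), 1-week (0.42) and 2-week (0.27) against never-induced hippocampus, reversed against induced (-0.36) and on against off (0.042), and for Sema4b at 2 weeks (-0.17). It did so for Epha7 at 1 week (0.16), in reversed against never-induced (0.041) and against induced hippocampus (0.22), and for Nrp1 at 5 weeks (0.036), in the interaction (0.027) and in reversed against induced (0.0072) and never-induced hippocampus (0.096). The others were Ephb6 (0.044) and Efnb3 (0.078) in reversed against induced hippocampus, Epha4 in reversed against never-induced hippocampus (-0.055), Ephb6 (0.014) and Sema7a (0.068) in on against off, Plxnb2 in VC CA1 (-0.018) and Tenm4 in the interaction (-0.45). Leaving out an array turned signs, with the ranges given, for Efna2 (-0.11 to 0.50), Plxna1 (-0.038 to 0.31) and Tenm3 (-0.26 to 0.10) in on against off, Efnb2 (-0.012 to 0.32), Plxna2 (-0.074 to 0.39) and Sema6d (-0.45 to 0.069) in induced against never-induced hippocampus, Epha8 (-0.097 to 0.48) in 5 weeks against 1 week, Sema3e (-2.01 to 0.33) and Sema5b (-0.16 to 1.60) in the interaction, Sema3e (-1.90 to 0.44) and Sema5b (-0.23 to 1.53) in VC against wild-type CA1, Sema4a (-0.58 to 0.15) in 1 week, Sema6c (-0.035 to 0.49) in 2 weeks. In CA1 against hippocampus, quantile normalization lost Efna2 (-0.72) and Sema5b (-0.89), and the mean of all probe sets lost Nrp1 (0.12) and Tenm4 (-0.10). Other causes of these changes were not tested. With 1 to 3 arrays per group, the number of arrays limits the precision.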
